A study of Mus musculus with 6 samples.

Results

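The 9 complement genes described here are C1qa, C1qb, C1qc, C1ra, C2, C3, C4b, Cfb and Cd55. They were taken by gene symbol from the count table of the whole epididymis, where all 9 of them are among 57127 listed genes. The table holds 6 RNA-seq libraries, 3 from adult wild-type mice (WT) and 3 from adult Ocln-/- mice (Ocln-KO), all labelled as C57BL/6 and kept under specific pathogen-free conditions. The Ocln-KO mice lack occludin, a tight junction protein, in every tissue rather than in the epididymis alone. RNA was extracted from 3 pairs of mice according to the methods, which also speak of pooled RNA, so n counts libraries, and the p-values measure the spread between libraries, which may be partly technical. The labels give the tissue as epididymis, whereas their extraction text names prefrontal cortex. The epididymal genes Crisp1, Lcn5 and Adam7 each reached at least 2477 CPM (read counts per library, scaled to 1000000 counts) in every library, while Lcn9, Adam28 and Rnase10 of the same marker list were at most 0.591 CPM in every library.

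Complement is a system of plasma and membrane proteins that tag microbes, immune complexes and dying cells and recruit phagocytes to them. In the classical pathway C1q, built of the A, B and C chains, recognises the target and activates the proteases C1r and C1s, which cleave C4 and C2 to form a C3 convertase, and in the alternative pathway factor B and factor D form a second one. Both converge on C3, whose fragments coat the target and attract leukocytes, and the pathway may end in a pore made of C5 to C9. Membrane proteins such as CD55, which dissociates the convertases, and soluble regulators such as factor I hold the cascade back on host cells. C1q is made largely by macrophages and dendritic cells, while C1r, C1s and C3 are made by many stromal and epithelial cells as well as by the liver.

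Depth ranged from 30646424 to 38870780 counts per library, so that 1 count stood for 0.0267 to 0.0314 CPM. Ocln itself had 3213, 2689 and 3409 counts in the WT libraries and 486, 489 and 503 in the Ocln-KO libraries. Of 19691 genes tested with edgeR's quasi-likelihood test, 770 were called higher and 992 lower in Ocln-KO at an adjusted p under 0.05. Ocln-KO replicate 3 stood apart on the first principal component. It was at 86.3, against 17.7 and 29.1 for the other Ocln-KO libraries and -52.8 to -37.0 for WT. Fits without Ocln-KO replicate 3 are given for C3, Cd55, C7, Cfd, Clu, C3ar1 and Itgb2.

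Of the 9 genes, 7 had enough counts to be tested, 6 of them with a higher and 1 with a lower mean in Ocln-KO, and their median log2 fold change was 0.53 against 0.01 over all genes tested. C3 was the 1 member called higher and no member was called lower, while 3.91% of all tested genes were called higher and 8.95% in either direction. An unadjusted p under 0.05 was reached by 5 of the 7, compared with 29.1% of all tested genes. In 4 of the 7, namely C3, C1qb, C1ra and Cd55, every Ocln-KO library lay above every WT library, which held for 16.9% of all tested genes. C2 and Cfb had too few counts for a test.

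**Figure D1:**
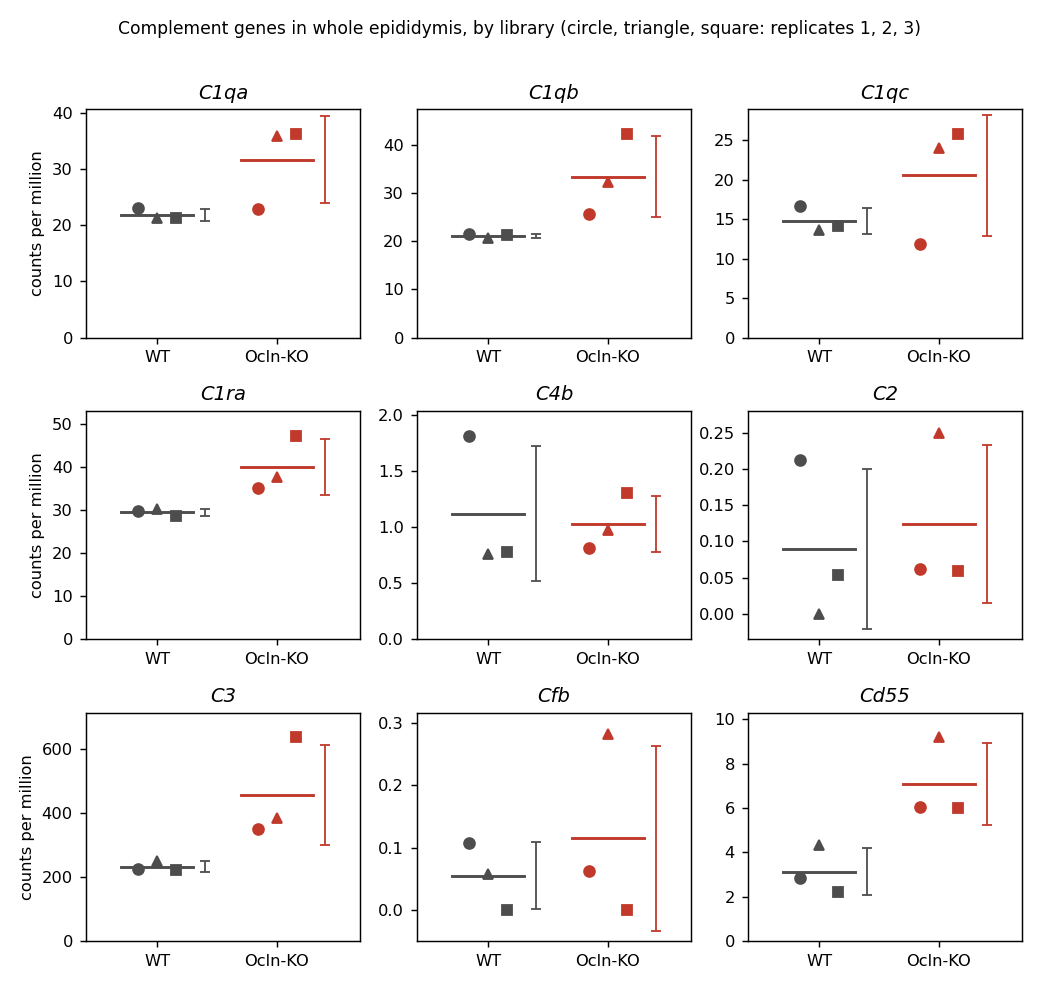
CPM (y axis) of each of the 9 complement genes in the 3 WT libraries (grey) and the 3 Ocln-KO libraries (red), with the group mean as a horizontal line and the SD as a bar beside it. The groups do not overlap for C3, C1qb, C1ra and Cd55, and C2 and Cfb stay at or under 0.282 CPM in every library.

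C3, the central component of the cascade, was the most abundant member per kb of exon. The WT libraries held C3 at 223, 251 and 222 CPM, the Ocln-KO libraries at 350.0, 385 and 636 CPM. All Ocln-KO libraries exceeded all WT libraries, and Ocln-KO replicate 3 was the highest by far. The means were 232 ± 16.4 and 457 ± 156 CPM (SD, n = 3), a log2 fold change of 0.98 (SE 0.22, edgeR adjusted p = 0.0364), which is 1.97-fold. Leaving out Ocln-KO replicate 3 gave a log2 fold change of 0.66 with an adjusted p of 0.00925. The call was lost without WT replicate 1, WT replicate 2, WT replicate 3 or Ocln-KO replicate 2, with adjusted p-values of 0.135, 0.0895, 0.134 and 0.0596. These fits called 23, 230, 56 and 562 genes in all, against 1762 in the full fit. DESeq2, which called 3165 genes in all, gave C3 an adjusted p of 1.14e-04.

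In the chains of C1q, the recognition part of the classical pathway, Ocln-KO replicate 1 stayed near WT. WT levels of C1qa were 23.1, 21.3 and 21.3 CPM, and Ocln-KO levels were 22.8, 36.0 and 36.3 CPM. For C1qb the WT libraries gave 21.6, 20.6 and 21.2 CPM, the Ocln-KO libraries 25.6, 32.2 and 42.3 CPM. C1qc stood at 16.7, 13.6 and 14.1 CPM in WT, against 11.8, 24.0 and 25.8 CPM in Ocln-KO. Ocln-KO replicates 2 and 3 thus lay above every WT library for all the chains, whereas Ocln-KO replicate 1 was above WT for C1qb, within the WT range for C1qa and below it for C1qc. The log2 fold changes were 0.53 (SE 0.18) for C1qa, 0.66 (SE 0.17) for C1qb and 0.47 (SE 0.27) for C1qc. None passed the test, with edgeR adjusted p-values of 0.0965, 0.0536 and 0.294. When Ocln-KO replicate 1 was left out, all of them passed, with adjusted p-values from 0.0163 to 0.0278, a statement about the remaining 5 libraries only. C1qc made up 19.6% of the summed C1q counts in Ocln-KO replicate 1, compared with 24.5% to 27.2% in the other 5 libraries.

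C1q is a macrophage product, so the levels of phagocyte markers stand beside it here. Of the 14 mononuclear phagocyte markers listed, 13 were tested and 11 had a higher mean in Ocln-KO. An unadjusted p under 0.05 was reached by 9, compared with 29.1% of all tested genes. Among these 9 was Cd163, which was lower in Ocln-KO without overlap, with a log2 fold change of -0.71 (SE 0.29, edgeR adjusted p = 0.155). Of the 13, edgeR called 1, Mpeg1, limma-voom also 1, and DESeq2 5, namely Cd68, Cx3cr1, Fcgr1, Lyz2 and Mpeg1. The shares of all genes tested by each tool that were called in either direction were 8.95% for edgeR, 9.03% for limma-voom and 14.7% for DESeq2, and these are the background for the counts of the other lists too. Their summed level was 290 to 312 CPM in WT, against 343, 380.1 and 606 CPM in Ocln-KO replicates 1, 2 and 3, the same order as for C1q. The mean log2 CPM of the C1q chains minus that of the 13 markers was 0.70, 0.48 and 0.68 in WT and 0.48, 0.71 and 0.57 in Ocln-KO. These ranges overlap, so relative to the markers C1q did not separate the genotypes. The single marker of this list with no count in any library, Aif1, lies on chromosome 17 near C2. Of 11 neutrophil markers 6 were at or under 3 counts in every library and 2, Csf3r and Ltf, were tested. Ltf was called lower, with a log2 fold change of -1.27 (SE 0.28, edgeR adjusted p = 0.0354). Csf3r had a log2 fold change of 1.30 (SE 0.57, adjusted p = 0.176). In bulk tissue, more cells of a type and more RNA per cell cannot be told apart. The part of phagocyte number in the C1q and C3 values was not tested.

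**Figure D2:**
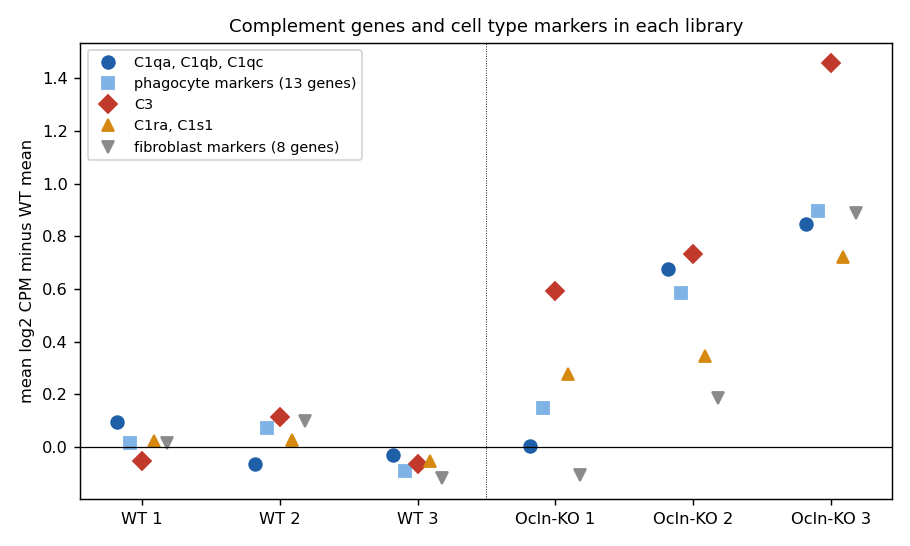
Mean log2 CPM minus the WT mean (y axis) in each of the 6 libraries for the C1q chains, 13 phagocyte markers, C3, C1ra with C1s1, and 8 fibroblast markers. C1q and the phagocyte markers lie close together in every library, while C3 lies above both in all Ocln-KO libraries and the fibroblast markers are below the WT mean in Ocln-KO replicate 1.

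C3 was set against the same markers. Its log2 CPM minus the mean of the phagocyte markers was 4.16 to 4.27 in WT and 4.68, 4.38 and 4.79 in Ocln-KO. Minus the mean of 8 fibroblast markers it was 0.86 to 0.99 in WT and 1.63, 1.48 and 1.499 in Ocln-KO. In both scales the Ocln-KO libraries lay above all WT libraries. Summed fibroblast markers were 2526 to 2772 CPM in WT, against 1994, 2748 and 5499 CPM in Ocln-KO, and 0 of the 8 were called by edgeR, 0 by DESeq2 and 0 by limma-voom, with 2 at an unadjusted p under 0.05. The part of fibroblast content in the C3 values was not tested.

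C1ra encodes the C1r protease. It had 29.6, 30.1 and 28.5 CPM in WT, against 35.0, 37.5 and 47.2 CPM in Ocln-KO. The groups did not overlap, but the log2 fold change of 0.44 (SE 0.12) had an edgeR adjusted p of 0.0645. C1s1, the gene next to it in the cascade, had 89.6 to 95.7 CPM in WT, against 115, 118 and 158 CPM in Ocln-KO, a log2 fold change of 0.48 (SE 0.13, adjusted p = 0.0589). The mean log2 CPM of C1ra and C1s1 minus that of the fibroblast markers was -1.29 to -1.15 in WT and -0.83, -1.05 and -1.38 in Ocln-KO, where replicate 3 was the lowest of all 6 libraries. C1s2, a closely related copy, had a log2 fold change of 1.03 (SE 0.30, adjusted p = 0.0732), and reads shared among such copies make these values uncertain. C1rb had 22 counts at most in any library and was not tested.

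Cd55 encodes the decay-accelerating factor, which protects host membranes. It had 2.86, 4.30 and 2.21 CPM in WT, against 6.04, 9.19 and 6.00 CPM in Ocln-KO. The groups did not overlap, and the means were 3.12 ± 1.07 and 7.08 ± 1.83 CPM (SD, n = 3). Its log2 fold change of 1.18 (SE 0.31) was the largest of the 7 tested members and its edgeR adjusted p was 0.0523. It passed the threshold under 6 of 13 alternatives, among them DESeq2 at 0.00271 and edgeR without Ocln-KO replicate 3 at 0.0421. The fibroblast and phagocyte sums were highest in Ocln-KO replicate 3, and Cd55 was highest in Ocln-KO replicate 2. The part of cell content in the Cd55 values was not tested. The neighbouring copy Cd55b had 2 to 32 counts per library with a log2 fold change of 0.06 (SE 1.0), and the antisense gene Gm16083 on the other strand had 0 counts in every library.

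C4b, C2 and Cfb had the fewest counts of the members, and C2 and Cfb were close to the detection limit. C4b, which with C2 makes the classical C3 convertase, had 68, 26 and 29 counts in WT and 26, 31 and 44 counts in Ocln-KO. The log2 fold change of -0.12 (SE 0.46, edgeR adjusted p = 0.888) had another sign under 2 of 13 alternatives, being 0.41 without WT replicate 1. C2 had 8, 0 and 2 counts in WT and 2, 8 and 2 in Ocln-KO. Cfb, the factor B of the alternative convertase, had 4, 2 and 0 counts in WT and 2, 9 and 0 in Ocln-KO. C4a, the copy beside C4b, had 2 counts at most in any library. No order between genotypes can be read from these counts.

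These genes share their place in the genome. C2 lies on chromosome 17 at 34862602 to 34882100, Cfb at 34856374 to 34862514 and C4b at 34728139 to 34743902 (GRCm38.p6, RefSeq), within the major histocompatibility complex. Nearly all of their neighbours were low as well. Of 64 protein-coding genes within 500 kb of C2, 7 (10.9%) averaged at least 1 CPM over the 6 libraries (here scaled by total counts), compared with 63.9% of 20593 protein-coding genes in the genome. The shares were 9.52% around Cfb and 7.69% around C4b. Around C3, which is on the same chromosome at 57203967 to 57228136, the share was 71.4%, around C1qa 72.7%, around C1ra 74.2% and around Cd55 53.8%. Widely expressed genes chosen after their values were seen, Csnk2b, a casein kinase subunit, Bag6, a chaperone, and Ddx39b, an RNA helicase, had 0 counts in all 6 libraries. Nelfe, which borders Cfb and encodes a subunit of a general elongation factor, had 0 to 41 counts. The low counts of C2, Cfb and C4b therefore cannot be read as their levels in the epididymis. The cause was not tested.

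**Figure D3:**
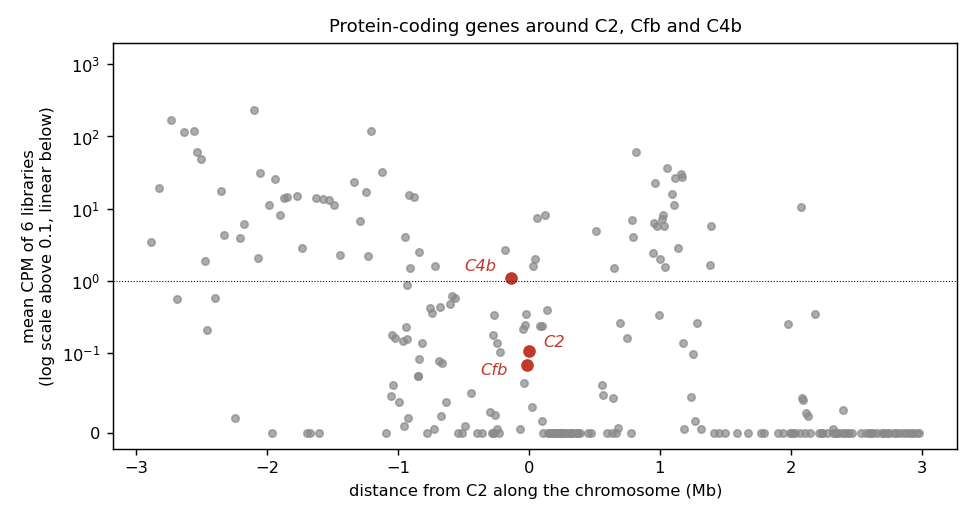
Mean CPM by total counts over the 6 libraries (y axis) of protein-coding genes against distance from C2 (x axis). The y axis is logarithmic above 0.1 and linear below. Distance, in Mb and positive towards higher coordinates, runs from the midpoint of C2 to that of each gene. Each grey point is a gene, C2, Cfb and C4b are red, and within 0.5 Mb of C2 nearly all points lie below the dotted line at 1 CPM.

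Between genes, levels were compared as CPM per kb of exon (CPM divided by the exon length in GENCODE M21). In WT the order was C3 at 45.1 ± 3.19, C1qa at 21.1 ± 1.02, C1qb at 19.4 ± 0.439, C1ra at 9.86 ± 0.283, C1qc at 7.67 ± 0.854, Cd55 at 0.643 ± 0.221, C4b at 0.197 ± 0.106, C2 at 0.0230 and Cfb at 0.0195 (SD, n = 3). Neighbours in this order did not overlap between libraries in WT, apart from C2 and Cfb. As described above, the values of C4b, C2 and Cfb cannot be read as levels, so their places are an order of counts only. In Ocln-KO C1qa (22.0 to 34.9) and C1qb (23.6 to 38.9) overlapped, as did C1ra (11.7 to 15.8) and C1qc (6.11 to 13.4). How reads with several alignments were counted is not given in the sources used here, and this limits any comparison of levels between genes.

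For 5 of the 9 genes, C1qb, C1qc, C1ra, C3 and Cd55, a RefSeq promoter sequence of the GRCm38.p6 build was at hand. The 250 bases before the transcript start that the promoter table uses for C3, the called gene, of C1qb and C1qc, which were set beside the phagocyte markers, and of Cd55, which had the highest log2 fold change of the members, are shown 5′ to 3′ on the gene's strand. All of them are on the minus strand, C3 at chr17:57228137-57228386, C1qb at chr4:136886201-136886450, C1qc at chr4:136892915-136893164 and Cd55 at chr1:130462745-130462994, and capitals mark a match to a searched motif. For Cd55 the start used lies 2265 bases inside the span that RefSeq gives the gene, and for C1qc 22 bases inside it, so longer transcripts of these genes begin elsewhere.
C3: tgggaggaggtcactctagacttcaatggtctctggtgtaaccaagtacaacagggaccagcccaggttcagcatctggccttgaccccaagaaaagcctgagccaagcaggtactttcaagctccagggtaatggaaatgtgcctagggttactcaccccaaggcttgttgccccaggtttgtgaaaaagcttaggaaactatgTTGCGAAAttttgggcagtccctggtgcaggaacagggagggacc
C1qb: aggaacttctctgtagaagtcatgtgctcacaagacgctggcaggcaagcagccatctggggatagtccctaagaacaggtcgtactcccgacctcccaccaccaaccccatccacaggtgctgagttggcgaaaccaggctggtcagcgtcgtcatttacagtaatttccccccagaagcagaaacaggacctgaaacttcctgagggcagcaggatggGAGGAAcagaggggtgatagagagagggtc
C1qc: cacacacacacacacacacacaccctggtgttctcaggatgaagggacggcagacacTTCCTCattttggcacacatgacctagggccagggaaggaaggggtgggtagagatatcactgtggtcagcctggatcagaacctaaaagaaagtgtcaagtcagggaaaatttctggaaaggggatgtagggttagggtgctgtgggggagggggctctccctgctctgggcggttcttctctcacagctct
Cd55: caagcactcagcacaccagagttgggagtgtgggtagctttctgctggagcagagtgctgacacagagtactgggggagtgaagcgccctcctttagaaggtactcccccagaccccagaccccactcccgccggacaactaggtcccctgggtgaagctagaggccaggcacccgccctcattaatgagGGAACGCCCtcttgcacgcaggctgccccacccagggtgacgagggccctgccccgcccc
The motifs were searched on both strands and did not overlap where they matched. C3 held the C/EBP form TTGCNNAA, TTGCGAAA, from 45 to 38 bases before the start, which 9.57% of 32536 promoters hold. C1qb and C1qc each held the PU.1 core GAGGAA, from 30 to 25 and, on the other strand, from 193 to 188 bases before the start, as do 23.4% of promoters. Cd55 held the NF-kB form GGGNNTTCC on the other strand, from 60 to 52 bases before the start, found in 5.0% of promoters. The interferon element core GAAANNGAA (7.15% of promoters), the STAT element TTCNNNGAA (7.04%) and the TATA box TATAAA (12.3%) had no match in any of the 5 windows, and C1ra matched none of the motifs. Such matches are descriptions of these letters and say nothing of binding in the epididymis.

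The wider complement list holds 56 genes, of which 39 were tested, 26 with a higher and 13 with a lower mean in Ocln-KO. Of them 3 were called higher, C3, Cfi and C7, and 2 lower, Cpn1 and C8g. The shares of all tested genes called in each direction were 3.91% higher and 5.04% lower. The median log2 fold change of the 39 was 0.29, and 20 had an unadjusted p under 0.05, against 29.1% of all tested genes.

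**Figure D4:**
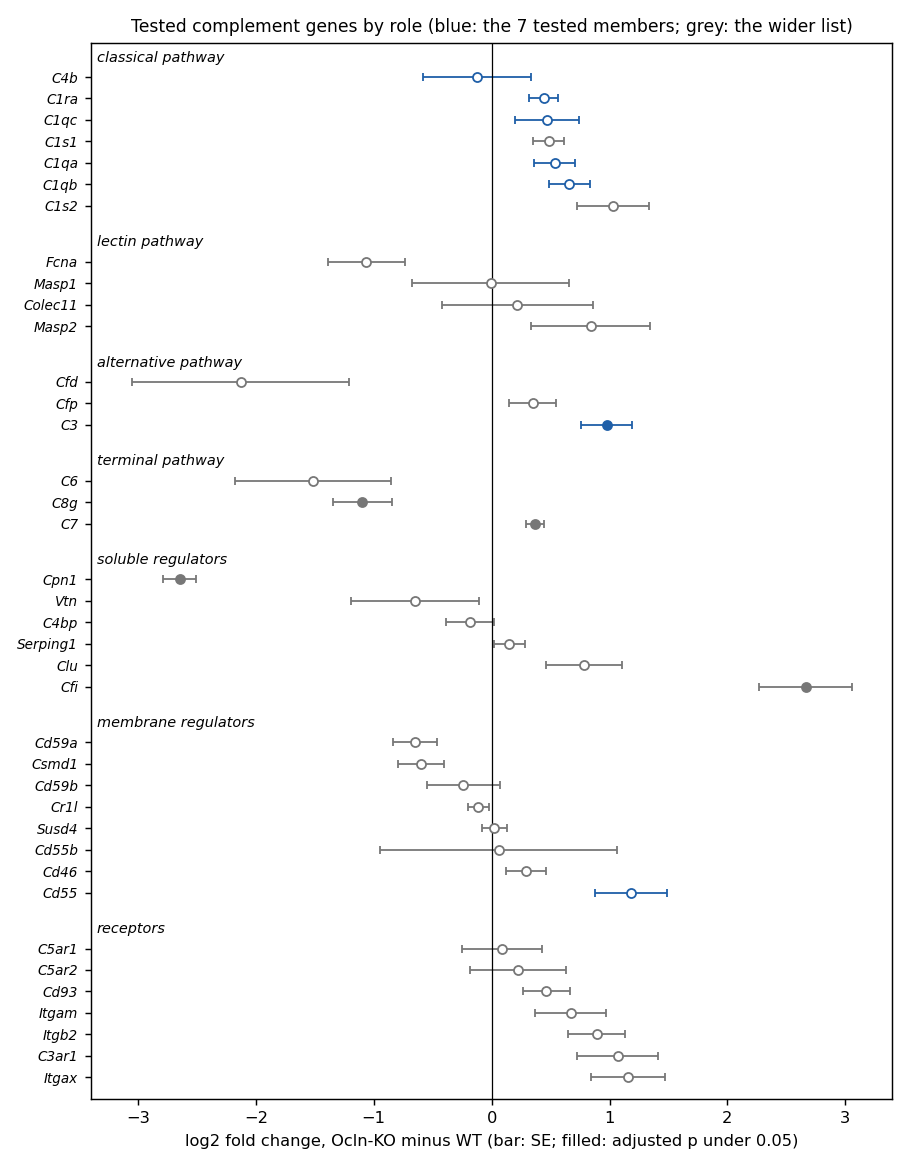
Log2 fold change in Ocln-KO against WT (x axis, bars give the SE) of 38 of the 39 tested complement genes, grouped by role, with the 7 tested members in blue and genes with an edgeR adjusted p under 0.05 filled. The receptors and the C1 genes lie to the right of 0, while Cpn1 at -2.65 and Cfi at 2.66 mark the ends of the range.

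The soluble regulators held the widest changes. Cfi, factor I, the protease that cleaves C3b and C4b with the help of cofactors, had 2.86, 3.86 and 2.37 CPM in WT, against 21.2, 9.41 and 26.9 CPM in Ocln-KO. The groups were far apart, with a log2 fold change of 2.66 (SE 0.39, edgeR adjusted p = 0.0151), which is 6.33-fold. The call was lost without WT replicate 1 or WT replicate 3, with adjusted p-values of 0.0929 and 0.0828. Cpn1, the catalytic chain of carboxypeptidase N, which inactivates the C3a and C5a peptides, had 75.7, 70.7 and 89.5 CPM in WT, against 14.3, 11.04 and 12.4 CPM in Ocln-KO. It fell by 2.65 on the log2 scale (SE 0.14, adjusted p = 0.000457) and passed under all 13 alternatives. Cpn2, which encodes the other chain of this enzyme, had 0 counts in every library.

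Other soluble regulators did not pass. C4bp, which binds C4b, had a log2 fold change of -0.18 (SE 0.20, edgeR adjusted p = 0.596), and Serping1, the C1 inhibitor, one of 0.15 (SE 0.13, adjusted p = 0.492). Clu, clusterin, an abundant secretory product of the epididymis, had 5205, 6140.3 and 4302 CPM in WT, against 5034, 8779 and 13126 CPM in Ocln-KO, where only replicates 2 and 3 exceeded WT, and its adjusted p was 0.151. Its log2 fold change was 0.78 (SE 0.32), and 0.41 without Ocln-KO replicate 3.

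Among the membrane regulators edgeR called 0 of 8, with 3 at an unadjusted p under 0.05, while DESeq2 called 3 and limma-voom 1. Of the 8, 4 had a higher and 4 a lower mean. Cd59a, which blocks the pore, had 16.9, 13.4 and 18.8 CPM in WT, against 11.3, 11.6 and 8.34 CPM in Ocln-KO, with no overlap and a log2 fold change of -0.65 (SE 0.19, edgeR adjusted p = 0.0686). Cr1l (Crry), the widely expressed mouse regulator of the convertases, had 59.4 to 68.9 CPM in WT, against 57.5 to 61.5 CPM in Ocln-KO, with a log2 fold change of -0.11 (SE 0.09). Cd46 had one of 0.29 (SE 0.17, adjusted p = 0.298). Cd55 thus had the highest log2 fold change of this group, 1.18, and Cd59a the lowest.

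In the terminal pathway C7, a pore component, rose from 151, 141 and 152 CPM in WT to 189, 186 and 197 CPM in Ocln-KO. The change was small but the libraries were close together, with a log2 fold change of 0.37 (SE 0.08, edgeR adjusted p = 0.0351). The call was lost when any library other than Ocln-KO replicate 1 was left out, with adjusted p-values from 0.0542 without Ocln-KO replicate 3 to 0.125 without WT replicate 1. C8g, the lipocalin chain of C8, had 6.28, 4.71 and 7.45 CPM in WT, against 3.33, 2.41 and 2.87 CPM in Ocln-KO, and fell by 1.10 on the log2 scale (SE 0.25, adjusted p = 0.0385). Leaving out any WT library or Ocln-KO replicate 2 ended this call, with adjusted p-values from 0.0644 without WT replicate 2 to 0.134 without WT replicate 1. C8g overlaps Fbxw5 on the other strand, which had 60.2 to 79.4 CPM in WT, against 52.0 to 57.2 CPM in Ocln-KO, and without a stated strand setting reads of the pair cannot be told apart. Hc (C5), C8a, C8b and C9 were not tested, with 8 counts at most in any library.

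The alternative pathway genes other than C3 and Cfb were Cfd and Cfp. Cfd, factor D, an adipocyte product, had 2.80, 5.18 and 3.87 CPM in WT, against 1.65, 1.07 and 0 CPM in Ocln-KO, with a log2 fold change of -2.13 (SE 0.92, edgeR adjusted p = 0.172). Cfd was called lower when Ocln-KO replicate 3 was left out. All 7 tested adipocyte markers of 8 listed also had a lower mean in Ocln-KO, and their part in the Cfd values was not tested. Of these markers edgeR called 0, DESeq2 1 and limma-voom 0, with 3 at an unadjusted p under 0.05. Cfp, properdin, which stabilises the alternative convertase, had a log2 fold change of 0.35 (SE 0.20, adjusted p = 0.288). In the lectin pathway 4 of 8 genes were tested, of which edgeR called 0, DESeq2 1 and limma-voom 0, with 1 at an unadjusted p under 0.05.

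All 7 tested receptors had a higher mean in Ocln-KO, of which edgeR called 0, DESeq2 3 and limma-voom 0, with 4 at an unadjusted p under 0.05. Over all genes tested DESeq2 called 14.7%, and 29.1% had an unadjusted p under 0.05. C3ar1, the receptor of C3a, had 9.11, 6.62 and 7.64 CPM in WT, against 9.09, 14.5 and 25.5 CPM in Ocln-KO. Itgb2, the shared chain of the leukocyte integrins that bind cleaved C3, had 7.67, 6.30 and 6.62 CPM in WT, against 9.03, 11.9 and 17.3 CPM in Ocln-KO. Both rank the Ocln-KO libraries as C1qb does. Their log2 fold changes were 1.07 (SE 0.35, edgeR adjusted p = 0.0906) and 0.89 (SE 0.24, adjusted p = 0.0606). Without Ocln-KO replicate 3 these log2 fold changes were 0.60 and 0.61. Itgam had one of 0.67 (SE 0.30, adjusted p = 0.185) and C5ar1 one of 0.09 (SE 0.34, adjusted p = 0.888).

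The genes most like each member across the 6 libraries were sought among 12225 others by the root mean square difference of log2 CPM after centring on each gene's mean. For C3 they included Elf4 and Dlec1, with differences of 0.08 and 0.09. For C1qc they were Ppa1, Tyrobp and Il20rb, at 0.07, 0.09 and 0.12. For C1qa they were Lynx1, Rgs2 and Rara, for C1qb Arhgef2 and Synpo2 among others, for C1ra Map4, Gm32694 and Tnfrsf1a, for C4b Lipo3, Flt4 and Alg14 and for Cd55 Tnnt2, Hypk and Ddx58. Among the members themselves C1qa with C1qb, at 0.137, and C1ra with C1qb, at 0.138, were the closest pairs. Cd55 was 0.47 from its nearest member, C3. With 6 libraries in 2 groups such likeness is a description only.

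**Figure D5:**
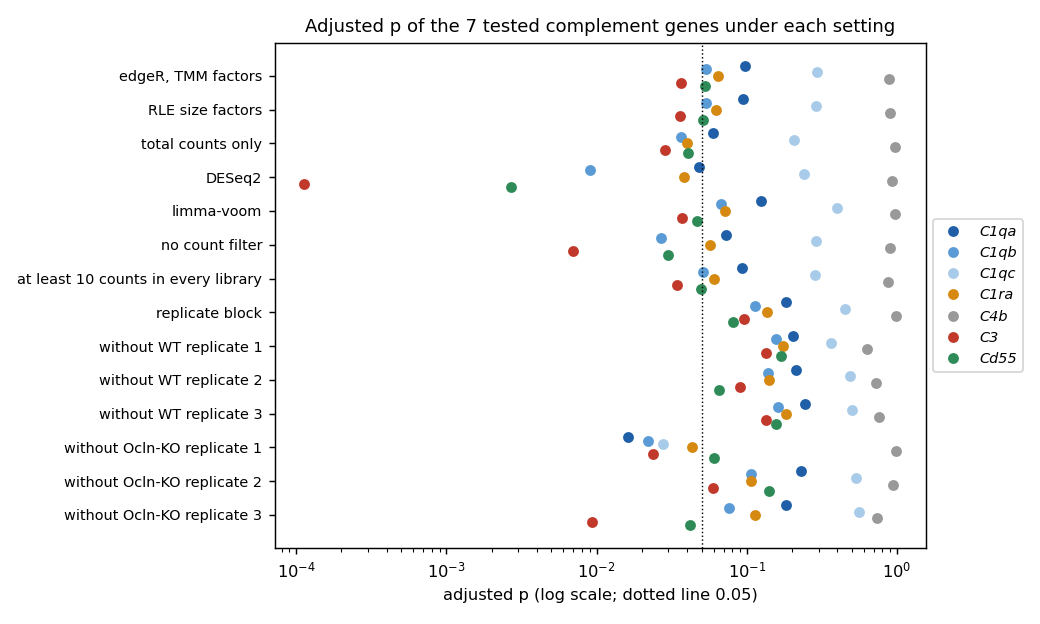
Adjusted p (x axis, log scale) of the 7 tested members under edgeR with TMM factors and under each of 13 alternatives (rows), with a dotted line at 0.05. C3 passes under 8 of the 13 alternatives, Cd55 under 6, C1qb under 4, C1ra under 3, C1qa under 2, C1qc under 1 and C4b under 0.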

How the data were processed

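Per the labels and the paper, total RNA of whole epididymis was depleted of rRNA, made into directional libraries and sequenced as paired ends. The authors aligned reads with HISAT2 2.0.4 (submitters' processing notes) to GRCm38 and deposited raw counts, 1 per gene and library as made by HTSeq, not normalized. The annotation, counting mode and strand setting are not given in the sources used here. Columns were matched to samples by name, with 0 columns left unmatched. Libraries were compared as unpaired, since those sharing a replicate number had correlations of -0.05, -0.03 and -0.00 in their deviations from the group means. No library was a copy of another.

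Counts were tested in R 4.3.3 with edgeR 4.0.16 (filterByExpr, TMM factors, quasi-likelihood test, Benjamini-Hochberg adjustment over 19691 genes, called at an adjusted p under 0.05), after the scripts were tested on simulated data. CPM uses TMM-scaled library sizes. A prior count of 2 entered the log2 CPM behind the principal components, the genes most like each member and the replicate correlations. Fold changes were fitted with edgeR's default prior count. The SE of a log2 fold change is its absolute value divided by the square root of edgeR's F statistic. A count of 3 was taken as the floor. DESeq2 1.42.0, limma-voom (limma 3.58.1), other size factors and filters, a replicate block and the leaving out of each library were alternatives. The data on which the scripts were tested held 200 genes changed 4-fold. There edgeR recovered 77% of them with 8 false calls, limma-voom 77% with 6 and DESeq2 85.5% with 53. CPM per kb used exon lengths of GENCODE M21, and positions and promoters came from RefSeq (GRCm38.p6). The members and lists were chosen with earlier results of these data known. Named were all 9 members, every listed complement gene past the threshold, a preset group of partner genes and the 3 genes most like each member with a mean of at least 5 CPM. The study's RPKM, proteome and lipid data were not used here. A few genes that these rules name are not reported here.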

Additional observations from a re-analysis of the deposited data

How the results depend on the processing

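The median log2 fold change of the 7 tested members stayed between 0.43 and 0.75 over all 13 alternatives, but the counts of calls moved widely. No called change reversed among the complement genes followed through the alternatives: the members, the genes called in the full fit and the preset partners. Other named genes, such as Ocln, Mpeg1, Lcn2 and Jchain, were not followed through all of them. With 1762 genes called in all, 1 member and 5 genes of the wider list, DESeq2 called 3165 genes, 5 members and 19 of the list. Total counts without a further factor called 1848 of 19691 genes, 4 members and 11 of the list. They also moved the median of all genes to 0.09 and the share of calls that were higher from 43.7% to 63.5%. With no count filter 3 members and 12 of the list passed, with 2158 of 32046 genes called. With at least 10 counts in every library 2 members passed, with 1795 of 17256 genes called. With limma-voom 2 members passed, with 1779 of 19691 genes called. Leaving out 1 library at a time gave 23 to 1692 genes, 0 to 5 members and 1 to 16 of the list. No member passed without WT replicate 1, 2 or 3 or without Ocln-KO replicate 2. Of all genes tested, these fits called 23 of 20316, 230 of 20294, 56 of 20277 and 562 of 20362. Without Ocln-KO replicate 1, 5 members passed, with 1657 of 20352 genes called. Without Ocln-KO replicate 3, 2 members passed, with 1692 of 20370 genes called. With a replicate block 41 genes, 0 members and 1 of the list, Cpn1, passed, and C3 had an adjusted p of 0.0958. The samples share only a number, and no sample correlated best with its own number. The cause of these moves was not tested. Calls rest on 3 libraries a group, and C2 and Cfb are limited by counts of 9 at most.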

Other observations

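Inflammatory and acute phase genes, which often accompany complement, were listed as a further group of 15, of which 7 were tested and 5 had a higher mean in Ocln-KO. Lcn2, the iron-binding lipocalin of the acute phase, was the 1 gene called. It stood at 102, 141 and 96.2 CPM in WT, against 159, 256 and 273 CPM in Ocln-KO, with no overlap between the groups and a log2 fold change of 1.02 (SE 0.22, edgeR adjusted p = 0.0362). Icam1, an adhesion molecule of inflamed tissue, had 11.7, 10.1 and 13.1 CPM in WT, against 15.7, 15.5 and 15.5 CPM in Ocln-KO, also without overlap, but an adjusted p of 0.0916. The acute phase genes Saa1, Saa2 and Saa3 had 13 counts at most in any library, and Il6 had 4 at most. Tnf, which lies within the stretch of chromosome 17 around C2, had 0 counts in every library.

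The liver, the main source of complement proteins in plasma, is marked by genes that were at a few counts here, with the exception of Fga and Fgb. Of 8 hepatocyte markers 4 were at or under 3 counts in every library, and Alb had 5 counts at most. Fgb had 40 counts at most. Fga, a fibrinogen chain, was the 1 tested, at 51.4 to 85.6 CPM in WT, against 34.6, 45.4 and 3.93 CPM in Ocln-KO. Of 7 B and plasma cell markers 4 were tested, 2 with a higher and 2 with a lower mean in Ocln-KO. Jchain, the joining chain of secreted antibodies, was the 1 called, with 56, 49 and 37 counts in WT and 206, 133 and 233 counts in Ocln-KO, a log2 fold change of 2.15 (SE 0.30, edgeR adjusted p = 0.0137). Mzb1, another plasma cell marker, averaged 1.87 CPM over the WT libraries, against 1.76 CPM over the Ocln-KO libraries, a log2 fold change of -0.09 (SE 0.29, adjusted p = 0.873), and Pax5, a B cell factor, had a log2 fold change of -0.06 (SE 0.57, adjusted p = 0.961).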
